A study of Mus musculus with 17 samples.

Results

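The 10 genes described here are 7 chemokines and 3 growth factors of macrophages and other myeloid cells, chosen by name among the 31053 genes of the count table: *Ccl2*, *Ccl7*, *Ccl8*, *Ccl9*, *Ccl11*, *Ccl19*, *Cx3cl1*, *Csf1*, *Csf2* and *Il34*. Each was found once under its symbol on a chromosome, and each had enough counts to be tested. They were followed by bulk RNA-seq in cardiac fibroblasts (CFs) sorted from infarcted mouse hearts over the 6 days after ligation of the left anterior descending artery. The series holds 17 libraries, 3 each at 1, 2, 4 and 6 days post-infarction (dpi), 4 at 3 dpi and 1 at 5 dpi. All mice were of strain C57BL/6, genotype Collagen1a1-GFP+ and 8 to 10 weeks old, all underwent myocardial infarction, and all cells were sorted as GFP+/CD31-/CD45-. GFP expression follows the promoter of collagen type I alpha 1, so the sort keeps collagen-expressing cells and leaves out fibroblasts in which that promoter is weak. Uninjured hearts were not analysed here, so that each value is set against another day after infarction.

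Chemokines are small secreted proteins that attract leukocytes by binding receptors on their surface, and those of the CC family carry a pair of adjacent cysteines near their start. Colony-stimulating factors keep myeloid cells alive and drive their division and maturation. After infarction, monocytes enter the heart in response to such signals, and fibroblasts of the injured wall are a known source of them.

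Levels are given as CPM, in which each count is divided by its library's total after adjustment by the trimmed mean of M-values (TMM). Total counts per library ran from 8021815 to 22029938 with a median of 14123952, so that 3 counts, the number below which a gene was treated as not detected, corresponded to between 0.136 and 0.374 CPM. Summed levels of 8 fibroblast genes lay between 12404 and 37994 CPM. The endothelial gene *Pecam1* (CD31) reached at most 241 counts in a library and the leukocyte gene *Ptprc* (CD45) at most 37, while the T cell genes *Cd3e* and *Cd3d* stood at 0 in all libraries. Summed levels of 14 macrophage and monocyte genes lay between 53.5 and 154 CPM in 15 libraries and at 366 and 323 CPM in 3 dpi replicates 3 and 4. Among them *Fcgr1* and *Adgre1* had no count at 1 dpi, *Ptprc* had none at 2 dpi, and *Ptprc* and *Adgre1* had none at 6 dpi. *Xist* and Y-linked genes showed female-type libraries at 4 and 6 dpi and male-type libraries at 2, 3 and 5 dpi. At 1 dpi, replicate 1 had 1670 counts of *Xist* and 84 of Y-linked genes, which reached at most 10 at 4 and 6 dpi. Replicate 2 of 1 dpi had 1455 Y-linked counts and 461 of *Xist*, which reached at most 51 at 2, 3 and 5 dpi. Replicate 3 of 1 dpi had 1207 Y-linked counts and 63 of *Xist*. Whether single 1 dpi libraries held RNA of both sexes was not tested. Sex and day cannot be told apart between 3 and 4 dpi. Between 1 and 6 dpi they also go together in part, as only 6 dpi was female-type throughout. The 3 dpi libraries carry column names of another form than all other libraries. Whether they were prepared or sequenced apart is not given in the sources used here. If they were, that difference and the steps to and from 3 dpi cannot be told apart. In such bulk samples fewer cells of a type and less RNA per cell cannot be told apart either.

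Between 1 and 6 dpi the levels of *Ccl2*, *Ccl7*, *Ccl11* and *Csf1* fell in these fibroblasts and those of *Ccl9* and *Cx3cl1* rose. The largest of these changes was in *Ccl2*, 8.07-fold lower at 6 dpi, and *Ccl9* was 4.11-fold higher. Of the 10 genes, 8 changed over the whole time course by the quasi-likelihood test of edgeR, with p-values adjusted by Benjamini-Hochberg, against 15.0% of all genes tested. DESeq2 called 7, against 26.8% of all genes. *Ccl8* (adjusted p = 0.554, edgeR) and *Il34* (adjusted p = 0.176) did not pass. In the direct comparison of 6 with 1 dpi, 6 of the 10 passed, against 12.1% of all genes tested, with 4 lower (5.21% of all genes) and 2 higher (6.91% of all genes). DESeq2 called 7 there, against 17.3%. With the ratio of *Xist* to Y-linked genes as a covariate only *Ccl2* and *Csf1* stayed called in edgeR. Among all genes 320 were then called, against 1700 without it. The median log2 fold change of the 10 genes was -1.07, and that of all genes was 0.027.

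**Figure D1:**
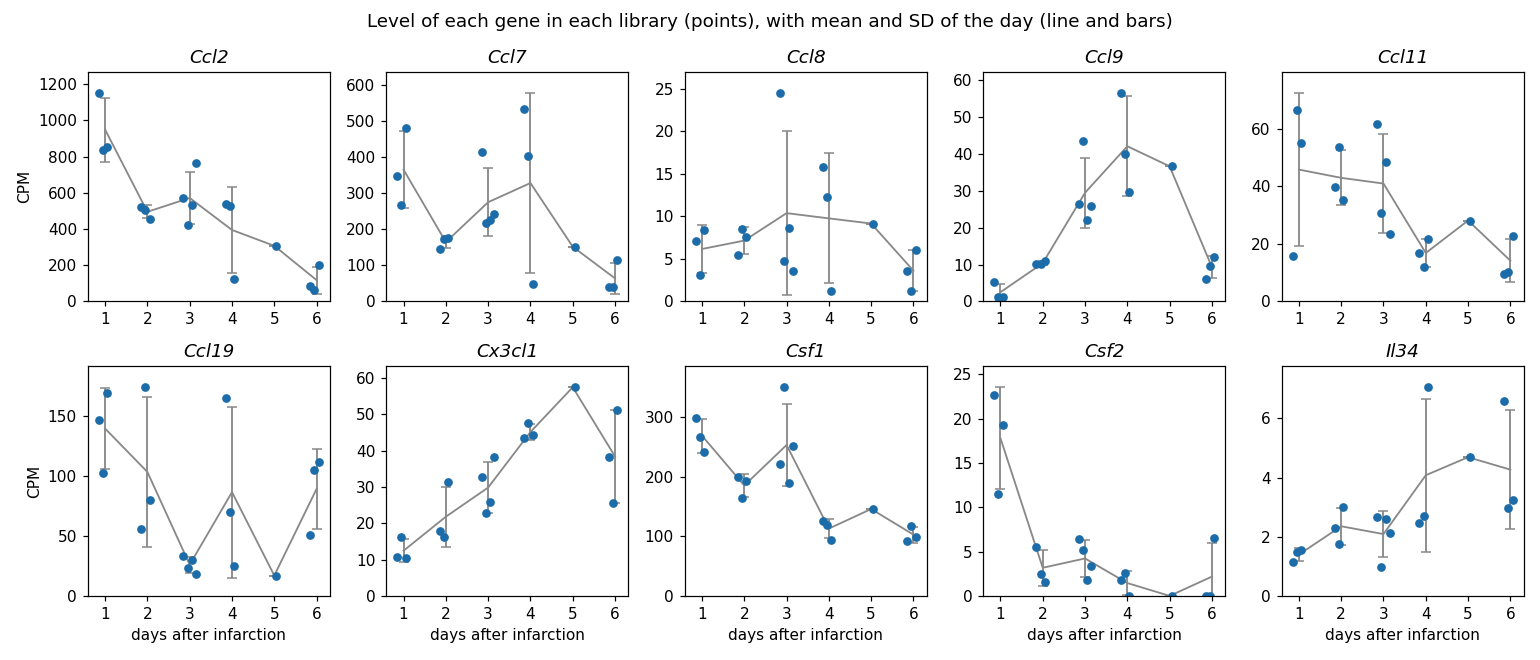
Level of each of the 10 genes in CPM (vertical axis, linear, from 0) against days after infarction (horizontal axis). Points are libraries, and the line and bars give the mean and SD of each day, with a single library and no bar at 5 dpi. *Ccl2* is highest at 1 dpi and lowest at 6 dpi, *Ccl9* rises to 4 dpi and falls by 6 dpi, and *Ccl19* is low in all 4 libraries at 3 dpi.

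*Ccl2* encodes the main attractant of inflammatory monocytes, which carry its receptor Ccr2. The gene lies on chromosome 11 from 82035571 to 82037453 (GRCm38, plus strand). Its level at 1 dpi was 1153, 838 and 855 CPM in replicates 1 to 3. At 2 dpi it was 524, 505 and 456 CPM, and at 3 dpi 570, 423, 531 and 762 CPM. All libraries of the first day thus stood above all those of the next 2 days. At 4 dpi it was 536, 526 and 123 CPM, at 5 dpi 307 CPM and at 6 dpi 87.5, 62.0 and 203 CPM. The days ranked 1, 3, 2, 4, 5 and 6 dpi by mean CPM, the libraries of 2 and 3 dpi overlapped, and replicate 3 of 4 dpi lay within the range of 6 dpi. The level fell between 1 and 6 dpi (log2 fold change -3.01, SE 0.48, adjusted p = 0.000433, edgeR), and this call held under all 29 alternative settings. No single step between neighbouring days passed for *Ccl2* in edgeR. The step from 4 to 6 dpi came closest, with a log2 fold change of -1.75 (SE 0.45, adjusted p = 0.0668, edgeR), and it passed without replicate 3 of 4 dpi (-2.15, adjusted p = 0.013) and in DESeq2 (adjusted p = 0.00512).

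*Ccl7*, whose product also binds Ccr2 on monocytes, lies next to *Ccl2* on chromosome 11, from 82045712 to 82047525. Its level was 348, 268 and 481 CPM at 1 dpi, and 146, 172 and 176 CPM at 2 dpi. At 3 dpi it was 415, 217, 226 and 243 CPM, at 4 dpi 533, 403 and 49.1 CPM and at 5 dpi 152 CPM. At 6 dpi it was 38.7, 39.3 and 114 CPM. The values at 6 dpi lay below all those of the first 3 days, and the 4 dpi libraries spanned almost the full range of the series. *Ccl7* fell between 1 and 6 dpi (log2 fold change -2.52, SE 0.58, adjusted p = 0.00797, edgeR), a 5.73-fold difference. Without 6 dpi replicate 1 the adjusted p was 0.0518, and without replicate 2 it was 0.0523. With the ratio of *Xist* to Y-linked genes as a covariate the log2 fold change was -2.78 with an adjusted p of 0.173 in edgeR. Its change over the whole course (adjusted p = 0.0386) passed under 11 of 27 alternatives. The step from 4 to 6 dpi had a log2 fold change of -2.36 (SE 0.57, adjusted p = 0.0591, edgeR) and passed without replicate 3 of 4 dpi (-2.85, adjusted p = 0.00497).

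*Ccl8*, a further monocyte attractant of this gene cluster, lies from 82115185 to 82116799 on chromosome 11. Its highest level, 24.6 CPM, was in 3 dpi replicate 1, where the other libraries of the day had 4.75, 8.62 and 3.62 CPM. At 4 dpi it was 15.8, 12.3 and 1.18 CPM. On the remaining days it ran from 1.19 CPM in 6 dpi replicate 2 to 9.16 CPM at 5 dpi. No comparison between days passed for *Ccl8*, and the libraries of all days with replicates overlapped (6 against 1 dpi, log2 fold change -0.76, SE 0.75, adjusted p = 0.545, edgeR).

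*Ccl11* encodes eotaxin, which attracts eosinophils through Ccr3, and lies between *Ccl7* and *Ccl8* (chromosome 11, 82057823 to 82062955). The 4 genes from *Ccl2* to *Ccl8* fit within 81229 bases. *Ccl11* stood at 15.7, 66.6 and 55.2 CPM at 1 dpi, 39.9, 53.6 and 35.3 CPM at 2 dpi and 61.5, 30.7, 48.4 and 23.3 CPM at 3 dpi. It stood at 16.8, 12.1 and 21.7 CPM at 4 dpi, 28.1 CPM at 5 dpi and 9.49, 10.1 and 22.8 CPM at 6 dpi. Replicate 1 of 1 dpi, the library of that day richest in *Xist*, was as low as the late libraries. All 4 dpi libraries were below all those of 2 and 3 dpi. The gene fell between 1 and 6 dpi (log2 fold change -1.70, SE 0.46, adjusted p = 0.0207, edgeR). The call was lost when either 1 dpi replicate 2 (-1.34, adjusted p = 0.102), 1 dpi replicate 3 (-1.56, 0.066), 6 dpi replicate 1 (-1.48, 0.107) or 6 dpi replicate 2 (-1.51, 0.101) was left out, and with the ratio of *Xist* to Y-linked genes as a covariate the value was 0.79. From 3 to 4 dpi the log2 fold change was -1.29 (SE 0.43, adjusted p = 0.119, edgeR), which DESeq2 called (adjusted p = 0.0425).

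Within single days the neighbours *Ccl2*, *Ccl7* and *Ccl8* were all low in replicate 3 of 4 dpi and all high in replicate 3 of 6 dpi. In 4 dpi replicate 3 they stood at -1.41, -2.16 and -2.28 relative to the mean of their day on the log2 CPM scale. In 6 dpi replicate 3 they lay 0.97, 1.03 and 0.99 above it, and in replicate 1 of that day *Ccl8* stood at 0.24 while *Ccl2* and *Ccl7* stood at -0.24 and -0.52. *Ccl11*, which sits between them, stood 0.40 above its day mean in 4 dpi replicate 3. *Csf1* and *Cx3cl1* in that library lay close to their day means, at -0.25 and -0.025. *Csf2* (-2.69) and *Ccl19* (-1.41), which lie elsewhere, were also low in 4 dpi replicate 3, and *Csf2* (3.73) and *Ccl11* (0.80) were also high in 6 dpi replicate 3. In 4 dpi replicate 3 the macrophage and monocyte genes summed to 53.5 CPM, against 95.5 and 103 CPM in the other libraries of the day, and whether this bears on the 3 chemokines was not tested. In 6 dpi replicate 3 they summed to 90.2 CPM, against 75.0 CPM in both others. Over the genes tested both libraries also departed from their day mates. Chi-square per degree of freedom was 133.95 and 105.78 for 4 dpi replicate 3, against 23.11 between replicates 1 and 2. For 6 dpi replicate 3 it was 95.65 and 121.8, against 52.36.

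**Figure D2:**
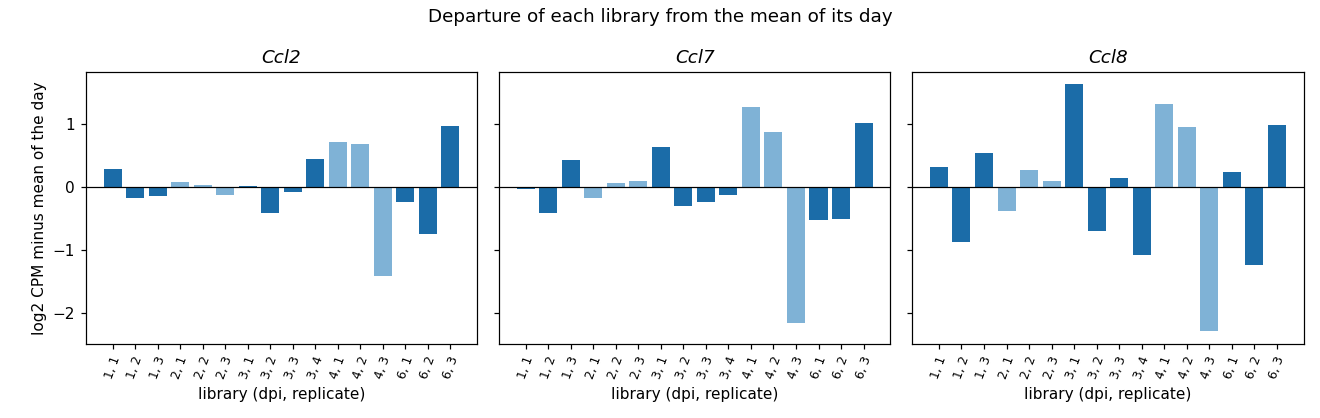
Departure of each library from the mean of its day for *Ccl2*, *Ccl7* and *Ccl8*, on the log2 CPM scale (vertical axis), with libraries named by day and replicate (horizontal axis). Bar shades alternate by day, and 5 dpi is left out because it has 1 library. Replicate 3 of 4 dpi is below its day mean and replicate 3 of 6 dpi above it for all 3 genes.

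*Ccl9* followed another course. It encodes a chemokine that binds Ccr1 on monocytes, dendritic cells and osteoclast precursors, and it lies outside that cluster on the minus strand of chromosome 11 (83572919 to 83578636). Its level was 5.19, 1.24 and 1.08 CPM at 1 dpi, from 41, 30 and 22 counts, and 10.0, 10.2 and 10.9 CPM at 2 dpi. At 3 dpi it was 26.5, 43.4, 22.1 and 26.0 CPM, and at 4 dpi 56.6, 40.0 and 29.7 CPM. At 5 dpi it was 36.7 CPM and at 6 dpi 6.14, 9.72 and 11.99 CPM. The libraries of 1, 2 and 3 dpi did not overlap, those of 3 and 4 dpi did, and those of 6 dpi overlapped only with those of 2 dpi. *Ccl9* fell from 4 to 6 dpi (log2 fold change -2.19, SE 0.44, adjusted p = 0.037, edgeR). It was the only one of the 10 genes called at that step, where 0.513% of all genes tested were called and 0.278% were lower. DESeq2 called *Ccl2* and *Ccl7* as well, against 5.75% of all genes. The call of *Ccl9* at this step was lost without 3 dpi replicate 4 (adjusted p = 0.0532), 4 dpi replicate 1 (0.166), 4 dpi replicate 2 (0.173), 6 dpi replicate 1 (0.164) or 6 dpi replicate 2 (0.22), with a log2 fold change of -1.91 or lower in each.

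The rise of *Ccl9* did not pass at either early step in edgeR, and both steps were close. From 1 to 2 dpi the log2 fold change was 2.20 (SE 0.47, adjusted p = 0.0785, edgeR). Without 1 dpi replicate 1, the library of that day richest in *Xist*, it was 3.15 (adjusted p = 0.00209, edgeR). From 2 to 3 dpi it was 1.51 (SE 0.41, adjusted p = 0.0506, edgeR), and DESeq2 called both steps. At 6 dpi the gene was still higher than at 1 dpi (log2 fold change 2.04, SE 0.47, adjusted p = 0.00846, edgeR), a call lost without 1 dpi replicate 2 (1.67, 0.0563) or 1 dpi replicate 3 (1.63, 0.0504). With the *Xist* to Y-linked ratio as a covariate this difference was -0.17 (adjusted p = 0.915, edgeR). The libraries richest in macrophage genes, 3 dpi replicates 3 and 4, held 22.1 and 26.0 CPM of *Ccl9*. Replicates 1 and 2 of that day held 26.5 and 43.4 CPM. The part of macrophages in the level of *Ccl9* was not tested.

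Promoter sequences are shown for the genes with a call between neighbouring days and a matching entry outside annotated exons, *Ccl9* and *Csf1*, and for the cluster gene *Ccl8*, which had no call. Entries of the RefSeq promoter table (GRCm38.p6) matched 6 of the 10 genes. The 160 bases before the RefSeq start are printed 5′ to 3′ on the gene's strand. Capitals mark matches, on either strand, to TATAAA, to TGANTCA (the site of AP-1, a factor of the early stress response) and to GGG followed after any 2 bases by TTNCC (the site of NF-kB, a factor of inflammatory signalling).
Ccl9, chr11:83578637-83578796, minus strand: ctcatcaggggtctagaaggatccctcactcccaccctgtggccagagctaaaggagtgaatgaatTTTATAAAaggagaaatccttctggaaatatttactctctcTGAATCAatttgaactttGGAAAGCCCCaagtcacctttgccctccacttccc
Csf1, chr3:107760470-107760629, minus strand: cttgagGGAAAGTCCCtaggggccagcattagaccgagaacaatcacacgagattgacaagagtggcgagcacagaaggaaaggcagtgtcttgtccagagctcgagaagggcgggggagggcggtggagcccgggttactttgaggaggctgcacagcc
Ccl8, chr11:82115025-82115184, plus strand: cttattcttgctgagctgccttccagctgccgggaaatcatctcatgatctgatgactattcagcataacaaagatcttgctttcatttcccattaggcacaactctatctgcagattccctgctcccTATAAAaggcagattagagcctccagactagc

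Counted from the start, the *Ccl9* window held the loose AP-1 letters at -53 to -47, as TGAATCA, which lacks the usual middle C or G. It held the NF-kB letters, on the opposite strand, at -35 to -26. Its TATAAA match at -92 to -87 overlaps a match on the opposite strand at -94 to -89. The *Csf1* window held the NF-kB letters at -154 to -145, also on the opposite strand, and *Ccl8* held TATAAA at -32 to -27. Over the table's 32851 windows of 300 bases, 7.81% held the AP-1 letters, 4.79% the NF-kB letters and 13.6% TATAAA. A match is a run of letters and no measured site.

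*Ccl19*, whose product draws dendritic cells and T cells through Ccr7, was the gene with the least certain counts. Of the last 400 bases of its transcript, where 3′-end reads fall, 240 are 98.75% identical to *Gm2564*, a copy also on chromosome 4 with 30049 counts in all, so that reads of the pair could be split between them. Its level was 147, 103 and 169 CPM at 1 dpi, and 56.0, 174 and 80.1 CPM at 2 dpi. At 3 dpi it was 33.1, 23.0, 29.7 and 18.3 CPM, and at 4 dpi 165, 70.3 and 24.7 CPM. At 5 dpi it was 16.97 CPM and at 6 dpi 51.0, 105 and 112 CPM. All 3 dpi libraries lay below all those of 1, 2 and 6 dpi, and 4 dpi replicate 3 lay within the 3 dpi range. The call of *Ccl19* over the whole course (adjusted p = 0.0084, edgeR) was lost only without the 3 dpi libraries (0.15).

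*Ccl19* fell from 2 to 3 dpi (log2 fold change -1.99, SE 0.47, adjusted p = 0.0253, edgeR). It was the only one of the 10 genes called at that step, where 2.94% of all genes tested were called and 1.12% were lower, and DESeq2 also called *Ccl9*, against 7.43% of all genes. Its fall was no longer called without 2 dpi replicate 2 (-1.39, adjusted p = 0.197), 2 dpi replicate 3 (-2.14, 0.0531) or 3 dpi replicate 4 (-1.87, 0.0758). Leaving out 3 dpi replicates 3 and 4 together, an alternative chosen after seeing the data, also ended the call (-1.88, 0.102). With the *Xist* to Y-linked ratio as a covariate *Ccl19* was no longer called (-1.89, adjusted p = 0.0852, edgeR) and *Ccl9* was (2.45, adjusted p = 0.00231). The gene rose again from 3 to 4 dpi (1.74, SE 0.47, adjusted p = 0.0497, edgeR), where 2 of the 10 genes and 2.71% of all genes tested were called, 1.63% higher and 1.08% lower. DESeq2 called 3 there, against 6.27% of all genes. That rise passed under 9 of 28 alternatives and was 0.87 without 4 dpi replicate 1. *Gm2564* fell from 2 to 3 dpi (-1.72, adjusted p = 0.0434, edgeR), and its step to 4 dpi had a log2 fold change of 1.41 (adjusted p = 0.097). Between 1 and 6 dpi *Ccl19* had a log2 fold change of -0.64 (adjusted p = 0.422, edgeR).

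**Figure D3:**
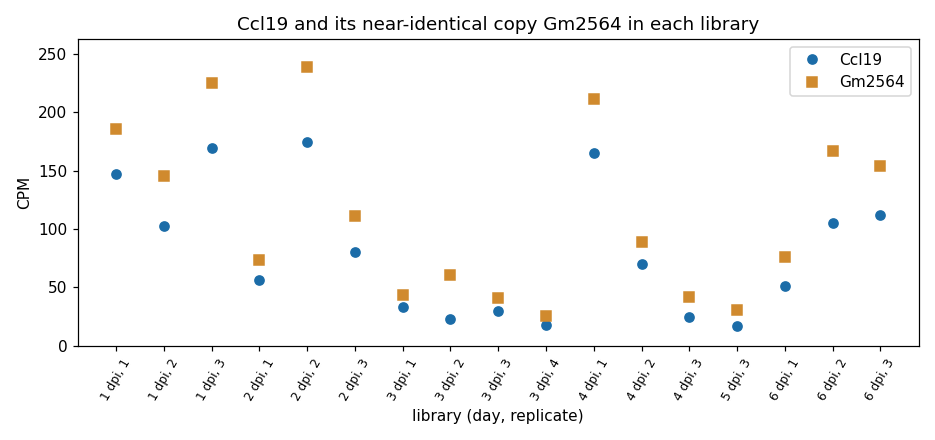
Levels of *Ccl19* (circles) and of its near-identical copy *Gm2564* (squares) in CPM (vertical axis) in each of the 17 libraries (horizontal axis, by day and replicate). The copies move together from library to library, and both are low in the 4 libraries of 3 dpi and in the 5 dpi library.

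*Cx3cl1* encodes fractalkine, a chemokine anchored in the membrane that binds Cx3cr1 on monocytes and resident macrophages and is released by the proteases Adam10 and Adam17. It lies on chromosome 8 from 94772009 to 94782427. Its level was 10.8, 16.1 and 10.5 CPM at 1 dpi, 18.0, 16.2 and 31.3 CPM at 2 dpi and 32.6, 22.8, 25.8 and 38.2 CPM at 3 dpi. It was 43.4, 47.7 and 44.3 CPM at 4 dpi, 57.5 CPM at 5 dpi and 38.3, 25.6 and 51.3 CPM at 6 dpi. The 1 dpi libraries were the lowest of the series, the 4 dpi libraries lay above all earlier ones, and those of 6 dpi overlapped with those of 3 and 4 dpi. The gene rose between 1 and 6 dpi (log2 fold change 1.62, SE 0.31, adjusted p = 0.00236, edgeR), a 3.07-fold difference that passed under 27 of 29 alternatives. The call was lost with the *Xist* to Y-linked ratio as a covariate (1.80, adjusted p = 0.169, edgeR) and with a minimum log2 fold change of 1. None of its steps between neighbouring days passed, and the largest of them was that from 1 to 2 dpi (0.80, SE 0.31, adjusted p = 0.517, edgeR).

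*Csf1* encodes macrophage colony-stimulating factor, the ligand that keeps macrophages alive through Csf1r, and lies on chromosome 3 from 107741048 to 107760469. Its level was 299, 267 and 241 CPM at 1 dpi, 199, 163 and 193 CPM at 2 dpi and 222, 350, 190 and 251 CPM at 3 dpi. It was 125, 119 and 94.1 CPM at 4 dpi, 146 CPM at 5 dpi and 91.8, 118 and 98.6 CPM at 6 dpi. All libraries of the first 3 days lay above all those of the last 3, and the 4 and 6 dpi libraries overlapped. *Csf1* fell from 3 to 4 dpi (log2 fold change -1.16, SE 0.24, adjusted p = 0.0114, edgeR), a 2.24-fold difference that was not called without 4 dpi replicate 2 (adjusted p = 0.0518). It was lower at 6 than at 1 dpi (log2 fold change -1.39, SE 0.25, adjusted p = 0.00139, edgeR) under 28 of 29 alternatives. The step from 3 to 4 dpi is also the step from male-type to female-type libraries, and with the *Xist* to Y-linked ratio as a covariate the log2 fold change was -2.33 with an adjusted p of 0.316.

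*Il34* encodes the other ligand of Csf1r. It was low, from 9 to 102 counts in a library, and the annotated antisense genes *Gm15895* and *Gm15894* share 75 and 22 of its exon bases. Its level was 1.14, 1.48 and 1.56 CPM at 1 dpi, 2.30, 1.75 and 3.00 CPM at 2 dpi and 2.66, 0.966, 2.602 and 2.13 CPM at 3 dpi. It was 2.47, 2.71 and 7.05 CPM at 4 dpi, 4.69 CPM at 5 dpi and 6.59, 2.98 and 3.23 CPM at 6 dpi. The 6 dpi libraries did not overlap with those of 1 dpi, and single libraries of 4 and 6 dpi were far above their day mates. The log2 fold change between 1 and 6 dpi was 1.59 (SE 0.57, adjusted p = 0.0727, edgeR), and DESeq2 called it (adjusted p = 0.0289).

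*Csf2* encodes granulocyte-macrophage colony-stimulating factor, which activates granulocytes, monocytes and dendritic cells. It shares 96 exon bases with the antisense gene *Gm12223*, and the strand setting of the counting is not given in the sources used here. It had 179, 278 and 394 counts at 1 dpi (22.7, 11.5 and 19.3 CPM), 102, 47 and 27 counts at 2 dpi and 73, 65, 24 and 32 counts at 3 dpi. It had 27, 45 and 0 counts at 4 dpi, 0 at 5 dpi and 0, 0 and 85 counts at 6 dpi. The 1 dpi libraries were thus the highest of the series, and 4 of the 7 libraries from 4 dpi onward had no count. Its change over the whole course had an adjusted p of 0.0483 in edgeR, which passed under 7 of 26 alternatives, and of 0.14 in DESeq2. The log2 fold change from 1 to 6 dpi was -3.03 (SE 1.13, adjusted p = 0.084, edgeR). Replicate 3 of 6 dpi, with 6.53 CPM, set this value, and without it the remaining 6 dpi libraries were both at 0.

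**Figure D4:**
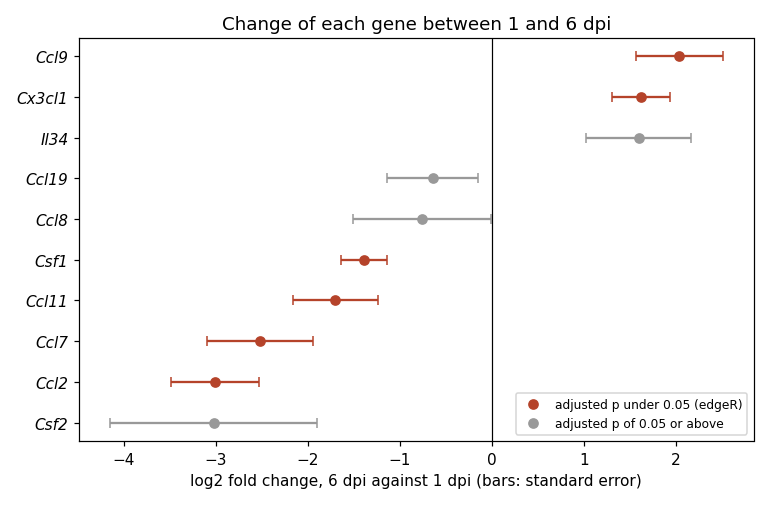
Log2 fold change of each gene from 1 to 6 dpi (horizontal axis, bars: standard error) with genes in order of size (vertical axis). Red points passed an adjusted p of 0.05 in edgeR and grey points did not. *Ccl9* and *Cx3cl1* lie to the right at 2.04 and 1.62, and *Csf1*, *Ccl11*, *Ccl7* and *Ccl2* to the left, from -1.39 to -3.01.

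At the first step, from 1 to 2 dpi, none of the 10 genes passed in edgeR, where 0.178% of all genes tested were called. DESeq2 called 1, *Ccl9* (adjusted p = 0.00164), against 0.741% of all genes. The libraries of the days did not overlap for 7 of the 10. *Ccl2*, *Ccl7*, *Csf1* and *Csf2* were lower in all 2 dpi libraries (7.03% of all genes tested), and *Ccl9*, *Cx3cl1* and *Il34* were higher (8.05% of all genes). For these 7 the libraries of 6 and 1 dpi did not overlap either, in the same directions (15.3% of all genes lower and 17.1% higher), and both comparisons share the 1 dpi libraries.

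**Figure D5:**
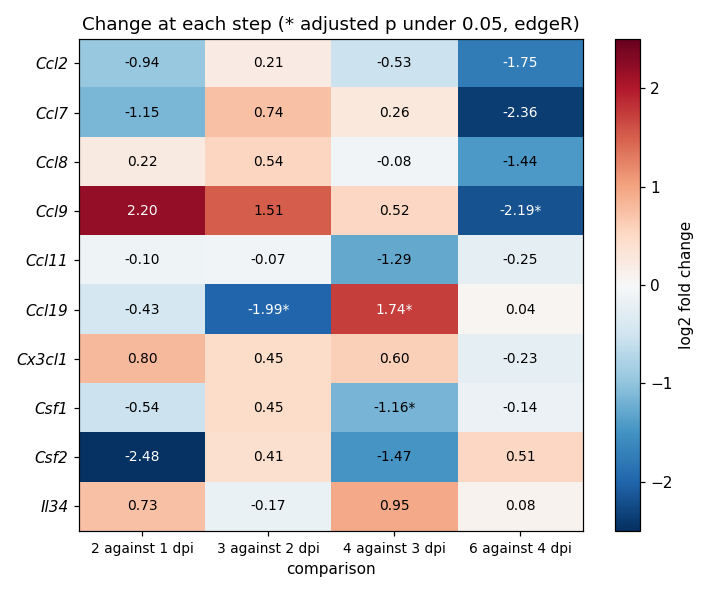
Log2 fold change of each gene (vertical axis) at each step between neighbouring days with replicates (horizontal axis), coloured from blue (lower) to red (higher), with an asterisk where the adjusted p was under 0.05 in edgeR. *Ccl19* is marked at the steps to 3 and 4 dpi, *Csf1* at the step to 4 dpi and *Ccl9* at the step to 6 dpi.

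The days of the highest mean log2 CPM divided the genes. *Ccl2*, *Ccl7*, *Ccl19*, *Csf1* and *Csf2* were highest at 1 dpi, *Ccl11* at 2 dpi and *Ccl9* at 4 dpi. By mean CPM *Ccl11* was highest at 1 dpi, with 45.8 against 43.0 CPM at 2 dpi. *Ccl8* among the replicated days was highest at 3 dpi, *Cx3cl1* at 4 dpi and *Il34* at 6 dpi. Likeness of profiles was measured as the root mean square (RMS) difference of mean-centred log2 CPM over the 17 libraries, among 10395 genes with at least 50 counts on average. For *Ccl2* the nearest genes were *Slc2a1*, a glucose transporter (RMS difference 0.47), *Mphosph10*, a factor of ribosomal RNA processing (0.49), and *Ccl7* (0.51), where the spread of *Ccl2* itself was 1.15. *Ccl7* was nearest to *Hk2*, a hexokinase (0.40). *Csf1* was nearest to *Nolc1*, a nucleolar protein (0.23, own spread 0.59), and *Cx3cl1* to *Fndc1* (0.34), *Enpp1* (0.34) and the collagen gene *Col3a1* (0.36, own spread 0.74). *Ccl9* was nearest to *Ube2c*, a ubiquitin-conjugating enzyme of mitosis (0.56, own spread 1.57), *Troap* (0.65) and *Spc24*, a kinetochore subunit (0.65). *Ccl11* was nearest to *Rnase4* (0.43), whereas no gene came within 1.54 of *Csf2*. These distances describe likeness over libraries that share days, sexes and depth.

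Among the other 15 CC chemokines listed, 9 had enough counts to be tested. Between 1 and 6 dpi 4 of them were called, against 12.1% of all genes tested. Over the whole course 2 of the 9 were called, against 15.0% of all genes. How these calls depend on single libraries or on the sex-linked ratio is not described here. *Ccl17*, which attracts T cells through Ccr4, rose (log2 fold change 3.75, SE 1.21, adjusted p = 0.0489, edgeR) from at most 15 counts at 1 dpi to between 36 and 61 counts at 6 dpi. *Ccl27a* (1.52, SE 0.35, adjusted p = 0.00901) and *Ccl21a*, a second ligand of Ccr7 (1.69, SE 0.54, adjusted p = 0.0463), were higher as well. Both belong to duplicated gene groups of the mouse, so that their counts are uncertain. *Ccl25* was lower (-1.54, SE 0.50, adjusted p = 0.0498). *Ccl21a* fell at the step from 3 to 4 dpi (-2.07, SE 0.53, adjusted p = 0.041, edgeR). *Ccl12*, a ligand of Ccr2 like *Ccl2*, reached at most 45 counts in a library.

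Of 17 receptors for these ligands, 6 could be tested. *Csf2ra*, the ligand-binding chain of the Csf2 receptor, rose between 1 and 6 dpi (1.68, SE 0.43, adjusted p = 0.015, edgeR), from between 3.03 and 4.78 CPM to between 9.45 and 15.4 CPM. *Sdc1*, a heparan sulphate proteoglycan that can bind Il34, changed over the whole course (adjusted p = 0.00514, edgeR) with its highest values, 119 to 218 CPM, at 3 dpi. *Csf1r*, a macrophage receptor, was highest in 3 dpi replicate 2, at 32.6 CPM. That library had the lowest sum of macrophage and monocyte genes of its day, 66.4 CPM with *Csf1r* included. From 2 to 3 dpi the log2 fold change of *Csf1r* was 2.23 (SE 0.70, adjusted p = 0.0843, edgeR). At that step 4 of the 13 macrophage and monocyte genes tested were called in edgeR, all higher, against 2.94% of all genes. DESeq2 called 7 of the 13, against 7.43% of all genes. The median log2 fold change of the 13 was 3.79, and that of all genes was 0.039. *Ccr2* and *Cx3cr1* reached at most 25 and 22 counts in a library.

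Of the 4 scavenging receptors, which take up chemokines without signalling for migration, *Ackr4*, which takes up Ccl19 and Ccl21a, changed over the whole course (adjusted p = 0.00875, edgeR). Its level lay between 4.18 and 13.6 CPM at 1 dpi and between 31.8 and 63.5 CPM at 3 dpi. *Ackr2*, which takes up inflammatory CC chemokines, fell from 2 to 3 dpi (log2 fold change -1.50, SE 0.39, adjusted p = 0.0428, edgeR), and *Ackr3* did not pass in any comparison. Of 5 proteases that shed or trim chemokines, *Mmp2*, which trims Ccl7, was higher at 6 than at 1 dpi (0.93, SE 0.27, adjusted p = 0.0304, edgeR), and the other 4 did not pass over the whole course.

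Other cell markers moved over the same days. Between 1 and 6 dpi 4 of 5 cardiomyocyte genes and 3 of 5 mural cell genes rose, with summed levels from between 11.3 and 21.5 to between 59.2 and 115 CPM and from between 32.2 and 60.3 to between 126 and 152 CPM. Mesothelial genes summed to 531 CPM in 6 dpi replicate 2 and to at most 150 CPM in the libraries of the other days. Genes induced by tissue dissociation summed to between 5033 and 9106 CPM over all libraries, and 2 of 10 fell between 1 and 6 dpi. Of all genes tested 6.91% were called higher and 5.21% lower between these days. The part of these cells and genes in the courses above was not tested.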

How the data were processed

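Libraries were made by the study with a bulk form of MARS-seq, which reads the 3′ ends of poly-A RNA. The authors demultiplexed with bcl2fastq (1.2.4), aligned to mm10 with STAR (2.6.1), and counted reads per gene with featureCounts, using the Ensembl annotation GRCm38.91. What they deposited is a table of raw counts, not normalized. The sources used here do not say how duplicate reads were treated. The SE includes the spread between libraries. The study calls its bulk libraries biological replicates. It mentions individual mice for 3 and 5 dpi in its cell preparation, and whether each library here came from its own animal is not given in the sources used here, so p-values measure the spread between libraries. The 5 dpi library is number 3 by title but 1 by description, and was used in the common fit only.

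Identifiers were matched to symbols for 30934 genes, with 119 left unmatched, and 10484 genes had no count. The 14030 genes that reached 10 counts in 3 libraries or more, holding at least 99.93% of the counts of each library, were fitted in edgeR (4.0.16, R 4.3.3) with TMM normalization, day as a factor of 6 levels and no block. The quasi-likelihood F-test was adjusted by Benjamini-Hochberg over all genes tested, at a threshold of 0.05. The SE is the log2 fold change over the square root of F. Log2 CPM used a prior count of 2. DESeq2 (1.42.0), the method the study names, was an alternative. Libraries of a day differed by more than sampling noise in each pair (chi-square per degree of freedom 23.11 or more), so each counts once. Positions are from GENCODE vM21, and copies were sought with blastn (2.17.0) at 90% identity or more over at least 68 bases. All 10 genes are named, other genes only from fixed lists of ligands, receptors, scavengers, proteases and markers, or as the 3 nearest profiles. The genes and lists were chosen with earlier results of these data known. Other settings tried were the normalization, the filter on low counts, the estimate of the spread, a replicate block, the libraries in the fit, a sex-linked covariate, a minimum fold change and leaving out each library.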

Additional observations from a re-analysis of the deposited data

How the results depend on the processing

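The number of the 10 genes called moved as follows, with smaller shifts of the count left out. Where no construction of the setting shows why, the cause was not tested. Over the whole course it was 8, and 5 with the sex-linked ratio as a covariate. From 1 to 2 dpi it was 0, with 1 under DESeq2, 3 with every gene of at least 1 count, 2 when only those days were fitted and 1 with the sex-linked covariate. From 2 to 3 dpi it was 1, with 2 under DESeq2 size factors, DESeq2, every gene of at least 1 count, a floor of 10 counts in each library, a robust spread or a fit of those days alone, and 0 with a minimum log2 fold change of 1 or without 3 dpi replicates 3 and 4. From 3 to 4 dpi it was 2, with 1 under DESeq2 size factors, a robust spread or without those 2 libraries, and 0 in a fit of those days alone, with the sex-linked covariate or the minimum change. From 4 to 6 dpi it was 1, with 3 under DESeq2, 4 with every gene of at least 1 count, 2 with the floor of 10 counts or without the 3 dpi libraries, and 0 with the minimum change. From 1 to 6 dpi it was 6, with 2 under the sex-linked covariate and 1 with the minimum change. Calls among all genes, in the same order of settings, were 2099 and 1048 over the whole course. From 1 to 2 dpi they were 25, 104, 153, 63 and 9. From 2 to 3 dpi they were 412, 427, 1042, 980, 396, 408, 252, 19 and 292. From 3 to 4 dpi they were 380, 371, 377, 202, 125, 0 and 27. From 4 to 6 dpi they were 72, 807, 882, 140, 292 and 1. From 1 to 6 dpi they were 1700, 320 and 218. Leaving out each library in turn gave 5 to 8, 0 to 1, 0 to 2, 0 to 2, 0 to 4 and 4 to 7 in the same order. Over all genes these were 1307 to 3466, 13 to 32, 46 to 734, 126 to 722, 3 to 1402 and 763 to 2577. Whether replicate numbers pair the libraries is not settled by their correlations. Same-numbered libraries of different days had a mean correlation of 0.011 (at most 0.2) and others of -0.005 (at most 0.148). Of 15 libraries, 8 were closest to their own number. With the replicate block the count was 0 at the step to 3 dpi, 1 at that to 4 dpi and 0 at that to 6 dpi. Among all genes 174, 243 and 28 were called at these steps. *Ccl19* (adjusted p = 0.102 and 0.164) and *Ccl9* (0.0654) were no longer called by edgeR. Examples of the smaller shifts follow. Over the whole course *Ccl7* and *Csf2* lost their call with a robust spread (adjusted p = 0.0594 and 0.104, edgeR) and with the replicate block (0.0838 and 0.0973). *Ccl19* and *Csf2* lost it without the 3 dpi libraries (0.15 and 0.0517). *Ccl8* gained one with every gene of at least 1 count (0.0411). Between 1 and 6 dpi *Ccl9* lost its call in a fit of those days alone (0.0554), and *Csf2* gained one with every such gene (1.41e-06).

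Called changes turned only with the sex-linked covariate, between 1 and 6 dpi, for *Ccl9* (log2 fold change -0.17, adjusted p = 0.915, edgeR) and *Ccl11* (0.79, 0.633). Its slope rests on the 1 dpi libraries, whose log2 ratio of *Xist* to Y-linked genes spans 8.54. The same covariate turned uncalled steps from 3 to 4 dpi for *Ccl7* (-0.27), *Ccl9* (-4.25) and *Ccl11* (3.20). The replicate block turned *Ccl11* from 2 to 3 dpi (0.13), as did leaving out 3 dpi replicates 3 and 4 (0.10). Leaving out single libraries turned the direction of uncalled steps, over ranges of -0.11 to 0.53 for *Ccl8* and -0.51 to 0.27 for *Ccl11* at the step to 2 dpi. At the step to 3 dpi they were -0.34 to 0.80 for *Ccl8*, -0.34 to 0.12 for *Ccl11* and -0.34 to 0.069 for *Il34*, and at the step to 4 dpi -0.28 to 0.76 for *Ccl7* and -0.60 to 0.78 for *Ccl8*. At the step to 6 dpi they were -0.38 to 0.91 for *Ccl19*, -0.38 to 0.73 for *Il34* and -7.47 to 1.18 for *Csf2*. Without 6 dpi replicate 3 the step of *Csf2* had the lowest of these values (adjusted p = 0.0205, edgeR) against 2 libraries at 0, a value that depends on the prior count. Depth limits *Csf2*, *Il34*, *Ccl8* and *Ccl9*, which had under 50 counts in some libraries, for *Ccl9* in all of 1 dpi.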
